A study of Caenorhabditis elegans with 9 samples.

Results

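The genes described here are the FMRFamide-like peptide (flp) genes of Caenorhabditis elegans, taken as every entry of the deposited count table whose gene symbol begins with flp-. This rule found 30 of 45461 entries, and all 30 had at least 1 count in at least 1 of the 9 libraries. RNA was sequenced from whole adult animals collected 48 hours after the L4 larval stage. In 3 libraries the animals had been kept on agar with nicotinic acid, in 3 on agar with 1-methylnicotinamide (1-MNA), and in 3 on agar to which only water was added. Nicotinic acid stands at 1 mM in the sample labels and at 1 nM in the treatment protocol. The 1-MNA dose was 1 µM, which matches neither. All plates came from 1 batch of NGM agar, and the strain is not given in the sources used here. The labels do not say whether replicates were separate cultures, so p-values measure only the spread between these samples.

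Each flp gene encodes a precursor protein that is cut into short peptides ending in arginine and an amidated phenylalanine. The proprotein convertase EGL-3 cuts the precursor, the carboxypeptidase EGL-21 trims the fragments, and amidating enzymes finish the peptide inside dense-core vesicles. The released peptides act mostly through G protein-coupled receptors such as NPR, FRPR, DMSR and EGL-6 proteins, and are known for roles in locomotion, feeding, egg laying, sleep and sensory behaviour. Most flp genes are made in small and partly overlapping sets of neurons. In libraries of whole animals, fewer cells of a type and less RNA per cell cannot be told apart. Nicotinic acid and 1-MNA are related pyridine compounds, a precursor of NAD and a methylated product of nicotinamide.

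Library totals were 18501261 to 31247605 counts, and the flp genes held 4501 to 7488 counts per library, or 0.0183% to 0.027% of the total. Levels are given in CPM, each gene's count divided by its library's size after trimmed-mean normalization and put on the usual fixed total. As a check of the whole-animal label, all 13 pan-neuronal markers, all 12 muscle markers, all 10 intestine markers and all 10 germline markers passed the filter on low counts. Summed over each list, the neuronal markers had 332 to 379 CPM, the muscle markers 3345 to 4480 CPM, the intestine markers 3791 to 4602 CPM and the germline markers 6373 to 7165 CPM. On the first 2 principal components of all genes, 1-MNA replicate 3 lay at -13.1 and -2.67, against -21.4 and -16.2, and -22.9 and -16.9, for the other 1-MNA libraries. Nicotinic acid replicate 1 lay at -15.2 on the first component, where its group's other libraries lay at -0.237 and 1.61.

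Of the 30 flp genes, 29 passed the filter, and flp-23 did not. The flp-23 gene had 0 counts in the 3 nicotinic acid libraries, 0 in the 3 1-MNA libraries, and 0, 1 and 0 in the 3 control libraries. A count of 0 allows a level of up to 0.096 to 0.162 CPM, depending on the library, and covers counting error only. No difference in flp-23 was detectable at this depth. The other 29 members had 29 to 596 counts in each library. The depth behind a member's values, as mean control CPM with no correction for gene length, ran from 1.4 for flp-32 to 22.9 for flp-6. Its median was 6.26 CPM over the 29 members and 12.6 CPM over all 13985 genes tested.

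Levels of different genes were compared per length of exon, in CPM per kilobase (kb) of the merged exons of the WBcel235 annotation. The highest control level was 33.2 ± 3.96 CPM per kb for flp-14, followed by 31.4 ± 5.12 for flp-6, 27.9 ± 1.78 for flp-28, 22.4 ± 0.388 for flp-22 and 22.2 ± 3.12 for flp-24 (SD, n = 3 each). Next came flp-1, which is made in the AVK interneurons and modulates locomotion and egg laying, at 20.5 ± 4.29 CPM per kb, and flp-9 at 19.2 ± 3.08 CPM per kb. The lowest level among the 29 was 2.9 ± 0.88 CPM per kb for flp-25. Of the 28 pairs of neighbours in this order, 25 had overlapping control libraries. The 3 pairs with no overlap were flp-28 above flp-22, flp-9 above flp-15, and flp-15 above flp-17. The order of neighbours is therefore not resolved for most of the list.

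**Figure D1:**
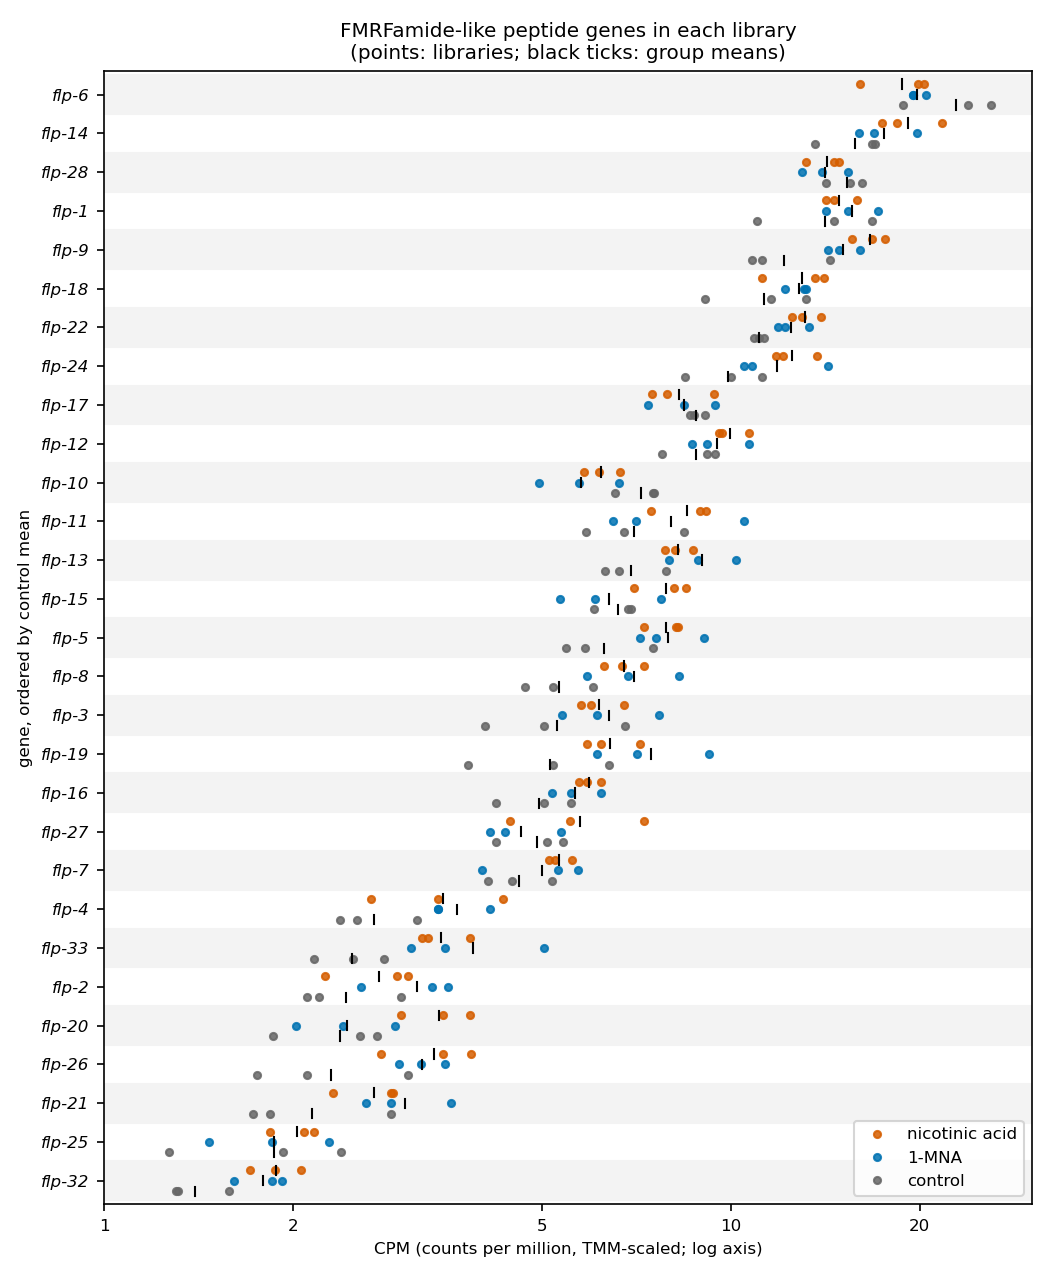
Level of each of the 29 flp genes that passed the filter, in CPM on a log axis, in the nicotinic acid, 1-MNA and control libraries. Each point is 1 library. The levels have no correction for gene length. The genes are ordered by their control mean, from 22.9 CPM for flp-6 to 1.4 CPM for flp-32.

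The deposited RPKM values (read counts scaled to gene length and library total) put the genes in another order. Dividing the counts by the deposited RPKM gives the gene length that was used, and for the members it ran from 21 bases for flp-1, whose exons hold 687 bases, to 4400 bases for flp-26, whose exons hold 422 bases. Of the 30 members, 5 had an implied length within 10% of their exon length. The deposited RPKM of flp-1 was 707, 764 and 671 in nicotinic acid, 667, 720 and 843 in 1-MNA, and 688, 504 and 816 in controls, the highest of the family in every library. The flp-14 gene followed at a control mean of 218 ± 31 RPKM, with an implied length of 72 bases against 477 bases of exon. After it came flp-33 at 45.6 ± 6.67 RPKM, with an implied length of 54 bases against 470. Of the 10 members with the highest deposited control RPKM, 6 were among the 10 highest per exon length. Across all genes, 2190 had an implied length under 100 bases. The main tests between groups below use counts and do not involve these lengths. Among the alternative analyses, those on the deposited RPKM values do involve them.

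**Figure D2:**
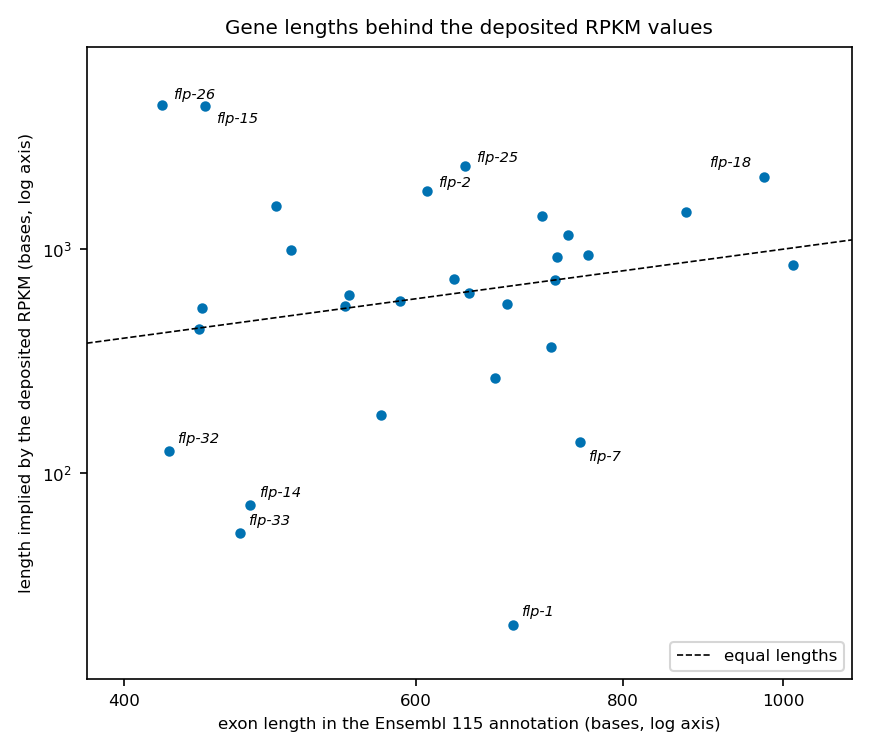
Gene length implied by the deposited RPKM values against exon length in the annotation, in bases on log axes, 1 point per flp gene. The line marks equal lengths. Implied lengths run from 21 to 4400 bases, while exon lengths run from 422 to 1013 bases.

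The comparison of nicotinic acid with water asks which flp transcripts differ in animals kept on the vitamin. Of the 29 members, 1 rose and 0 fell past an adjusted p of 0.05 in the edgeR quasi-likelihood test (3.45%). Across all genes tested in that comparison, 5.34% were called, 1.94% higher and 3.4% lower, so the members' share is near the background. At an unadjusted p under 0.05, 10 members were higher (34.5%) and 1 was lower, while among all genes 8.59% were higher and 10.6% lower. DESeq2 and limma-voom each called 1 member, flp-9 in both.

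The member that rose was flp-9. It had 15.6, 16.8 and 17.6 CPM in nicotinic acid, and 11.2, 10.8 and 14.4 CPM in controls. Every nicotinic acid library lay above every control library, and control replicate 3 was the nearest. Its mean was 16.7 ± 1.01 CPM in nicotinic acid and 12.1 ± 1.95 CPM in controls (SD, n = 3 each), a log2 fold change of 0.45 (SE 0.11, 95% interval 0.21 to 0.69, 1.37-fold, edgeR adjusted p = 0.033). The call was lost in 8 of 20 alternative analyses, and the log2 fold change ran from 0.38 to 0.60 over the 20. Leaving out nicotinic acid replicate 2 gave an adjusted p of 0.0645, replicate 3 of that group 0.101, and 1-MNA replicate 1 gave 0.0513. Leaving out control replicate 1 gave 0.115, and control replicate 2 gave 0.0874.

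Most of the members that were not called lay above 0 in this comparison. The log2 fold changes of the 29 ran from -0.29 to 0.52 with a median of 0.25 (1.19-fold), and 25 were above 0 (86.2%). Among all genes tested, 49.9% were above 0 and the median was -0.00024. The 3 nicotinic acid libraries lay above the 3 control libraries, with no overlap, in 11 members (37.9%), namely flp-8, flp-9, flp-12, flp-14, flp-15, flp-16, flp-20, flp-22, flp-24, flp-32 and flp-33. This held for 10.7% of all genes, and no overlap in the lower direction held for 11.9% of all genes and for 0 members. The median 95% interval of a member reached 0.31 to either side of its log2 fold change, so most single changes were no larger than their own error.

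The uncalled members with the smallest p were flp-22, flp-20 and flp-26. The flp-22 gene had 12.5, 13 and 13.9 CPM in nicotinic acid, and 10.9, 11.1 and 11.3 CPM in controls, with no overlap and little spread among controls. Its log2 fold change was 0.25 (SE 0.09, edgeR adjusted p = 0.141). The flp-26 gene had 2.76, 3.85 and 3.47 CPM in nicotinic acid, and 1.75, 2.11 and 3.05 CPM in controls, where control replicate 3 overlapped the nicotinic acid range (log2 fold change 0.52, SE 0.21, adjusted p = 0.19 in edgeR).

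The flp-20 gene, which is made in the touch receptor neurons, had 2.97, 3.47 and 3.83 CPM in nicotinic acid, and 2.56, 1.86 and 2.72 CPM in controls. The groups did not overlap, and the log2 fold change was 0.52 (SE 0.20, edgeR adjusted p = 0.161). Of 6 touch neuron markers, 2 rose in this comparison, the channel gene mec-4 by 0.98 and mec-18 by 0.74 on the log2 scale (edgeR adjusted p = 0.0352 and 0.0314), and all 6 lay above 0. The summed level of the 6 was 69.8 to 89.5 CPM in nicotinic acid, 62.3 to 75.4 CPM in 1-MNA and 58.8 to 68.9 CPM in controls, and none was at 0. The part of these markers in the flp-20 values was not tested. The mec-4 call was lost in 11 of 19 alternatives (adjusted p up to 0.0953), among them those without nicotinic acid replicate 2 or 3, 1-MNA replicate 1 or any 1 control. The mec-18 call was lost in 7 of 20 (adjusted p up to 0.108), among them those without nicotinic acid replicate 2 or 3, or control replicate 1 or 3.

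The comparison of 1-MNA with water uses the same 3 control libraries, so the changes in the 2 comparisons are not independent and are set side by side only. In edgeR, 0 of 29 members passed the threshold, and DESeq2 and limma-voom also called 0, while edgeR called 7.41% of all genes, 3.63% higher and 3.78% lower. At an unadjusted p under 0.05, 9 members were higher (31%) and 1 was lower, against 8.6% and 10.3% of all genes. The log2 fold changes ran from -0.32 to 0.64 with a median of 0.19 (1.14-fold), and 23 of 29 were above 0 (79.3%), against 49.2% of all genes, whose median was -0.00274. The 1-MNA libraries lay wholly above the controls in 5 members (17.2%), flp-4, flp-13, flp-22, flp-32 and flp-33, against 11.5% of all genes. They lay wholly below the controls in 0 members, against 13.1% of all genes. The median of 0.19 became 0.31 when control replicate 3 was left out, and 0.11 when either control replicate 2 or 1-MNA replicate 3 was.

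The members with the smallest p under 1-MNA were flp-33, flp-13 and flp-9. The flp-33 gene had 3.50, 3.09 and 5.04 CPM in 1-MNA, and 2.16, 2.49 and 2.80 CPM in controls. There was no overlap, and 1-MNA replicate 3 was the highest library. Its log2 fold change was 0.64 (SE 0.20, 95% interval 0.21 to 1.07, 1.56-fold, edgeR adjusted p = 0.0746). Without 1-MNA replicate 3 the log2 fold change was 0.40 (adjusted p = 0.248), and over all alternatives it ran from 0.40 to 0.78. With no filter on low counts the adjusted p was 0.0301, and over all alternatives it ran from 0.0301 to 0.248. In the annotation its exons share a few bases with ntr-1 on the opposite strand, and whether counting used strand is not stated. The same holds for flp-8, flp-11, flp-16 and flp-19, each with another gene, and flp-17 shares a few bases with a piRNA on its own strand. The flp-9 gene had 14.9, 14.3 and 16.1 CPM in 1-MNA, against the control values given above, with the lowest 1-MNA library just below control replicate 3. Its log2 fold change was 0.31 (SE 0.11, edgeR adjusted p = 0.123), and 0.46 without control replicate 3 (adjusted p = 0.025).

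**Figure D3:**
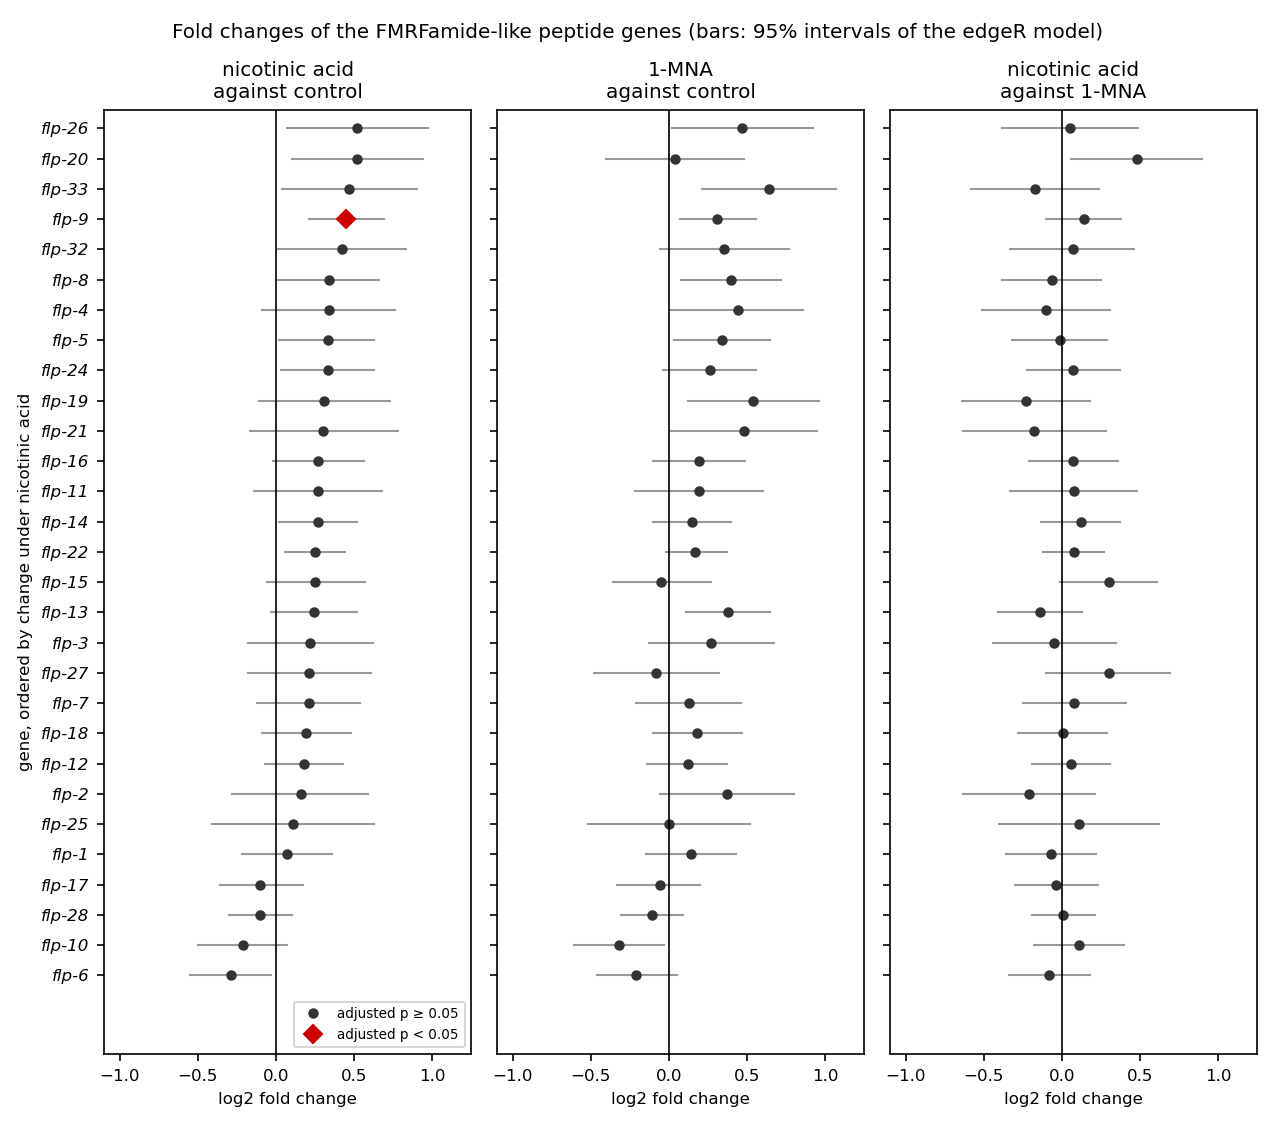
Log2 fold changes of the 29 flp genes tested, for nicotinic acid against control, 1-MNA against control and nicotinic acid against 1-MNA, with 95% intervals of the edgeR model. The genes are ordered by the change under nicotinic acid. The 1 diamond is flp-9 under nicotinic acid, at 0.45, and every other point missed the threshold.

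Between the compounds, given at different doses, 0 of 29 members passed the threshold in edgeR, DESeq2 or limma-voom, while edgeR called 1.42% of all genes, 0.315% higher and 1.1% lower in nicotinic acid. At an unadjusted p under 0.05, 1 member was higher in nicotinic acid (3.45%) and 0 were lower, against 6.36% and 7.2% of all genes. The log2 fold changes of nicotinic acid against 1-MNA had a median of 0.05, and 17 of 29 were above 0 (58.6%), against 50.9% of all genes. Without 1-MNA replicate 1 the median was -0.05 and 11 were above 0. The median 95% interval reached 0.31 to either side, so that differences of this size between the compounds were not detectable for most members.

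The gene with the smallest p between the compounds was flp-20, with the nicotinic acid values above and 2.02, 2.40 and 2.91 CPM in 1-MNA. It was the 1 member whose nicotinic acid libraries all lay above its 1-MNA libraries, which held for 9.32% of all genes. No member had its nicotinic acid libraries wholly below, which held for 9.78% of all genes. The log2 fold change was 0.48 (SE 0.19, 95% interval 0.06 to 0.90, edgeR adjusted p = 0.29). The flp-15 gene, whose peptides activate the receptor NPR-3, had 7, 8.12 and 8.49 CPM in nicotinic acid, 6.07, 5.34 and 7.74 CPM in 1-MNA, and 6.92, 6.04 and 6.84 CPM in controls. Nicotinic acid replicate 1 overlapped the 1-MNA range, and the log2 fold change between the compounds was 0.30 (SE 0.15, edgeR adjusted p = 0.395). The flp-27 gene had 4.44, 7.27 and 5.53 CPM in nicotinic acid, and 4.13, 4.36 and 5.36 CPM in 1-MNA, with overlap (log2 fold change 0.30, SE 0.18, adjusted p = 0.538 in edgeR). Nicotinic acid replicate 2 was the highest library for flp-27, and without it the log2 fold change was 0.11.

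Among the members known for sleep, flp-11 is made by the RIS neuron, whose activity accompanies sleep, and flp-13 and flp-24 are made by the ALA neuron, which drives sleep after cell stress. The flp-13 gene had 7.85, 8.71 and 8.14 CPM in nicotinic acid, 7.96, 8.86 and 10.2 CPM in 1-MNA, and 6.29, 6.63 and 7.87 CPM in controls. The 1-MNA libraries lay above the controls and the nicotinic acid libraries overlapped them by a small margin. Its log2 fold change was 0.24 under nicotinic acid and 0.38 under 1-MNA (SE 0.13 each, edgeR adjusted p = 0.336 and 0.101). The flp-24 gene had 11.8, 13.7 and 12.1 CPM in nicotinic acid, 10.5, 10.8 and 14.3 CPM in 1-MNA, and 10, 8.44 and 11.2 CPM in controls. Its nicotinic acid libraries lay above the controls and its 1-MNA libraries did not, with log2 fold changes of 0.33 and 0.26 (edgeR adjusted p = 0.205 and 0.351). The flp-11 gene averaged 8.5 ± 0.903 CPM in nicotinic acid, 8.01 ± 2.17 in 1-MNA and 7.01 ± 1.3 in controls (SD, n = 3 each), and all groups overlapped. The flp-2 gene, which promotes arousal through the receptor FRPR-18, averaged 2.74 ± 0.428 CPM in nicotinic acid, 3.15 ± 0.51 in 1-MNA and 2.43 ± 0.478 in controls, again with overlap.

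The peptides of flp-10 and flp-17 inhibit egg laying through the receptor EGL-6, and flp-17 is made in the BAG neurons. The flp-10 gene had 6.65, 6.15 and 5.82 CPM in nicotinic acid, 5.73, 4.94 and 6.62 CPM in 1-MNA, and 7.51, 6.54 and 7.54 CPM in controls. Control replicate 2 overlapped the highest library of each compound, and the log2 fold changes were -0.21 under nicotinic acid and -0.32 under 1-MNA (SE 0.13 each, edgeR adjusted p = 0.432 and 0.204). The flp-17 gene averaged 8.26 ± 1.01 CPM in nicotinic acid, 8.41 ± 1.02 in 1-MNA and 8.8 ± 0.244 in controls, with overlap. Its receptor gene egl-6 had log2 fold changes of 0.01 and 0.03 (edgeR adjusted p = 0.972 and 0.936).

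The other members below 0 against control under both compounds were flp-6 and flp-28, which makes 4 in all with flp-10 and flp-17. The flp-6 gene, made in sensory neurons of the head, had 20.3, 19.9 and 16.1 CPM in nicotinic acid, 20.5, 19.5 and 19.5 CPM in 1-MNA, and 26, 23.9 and 18.8 CPM in controls. Control replicate 3 lay within the nicotinic acid range and below every 1-MNA library, and the other controls lay above every treated library. The log2 fold changes were -0.29 under nicotinic acid and -0.21 under 1-MNA (SE 0.12 each, edgeR adjusted p = 0.205 and 0.394). The flp-28 gene averaged 14.2 ± 0.888 CPM in nicotinic acid, 14.1 ± 1.22 in 1-MNA and 15.3 ± 0.975 in controls, with overlap. In the annotation flp-28, flp-3 and flp-2 are consecutive protein-coding genes, and their log2 fold changes under nicotinic acid were -0.10, 0.22 and 0.16, each with an edgeR adjusted p of at least 0.587.

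Of the members known for feeding and foraging, flp-18 encodes ligands of NPR-1, NPR-4 and NPR-5, and flp-21 encodes a ligand of NPR-1 that acts in social feeding. The flp-18 gene had 11.2, 14.1 and 13.6 CPM in nicotinic acid, 13.1, 12.2 and 13.2 CPM in 1-MNA, and 11.6, 9.08 and 13.2 CPM in controls. Control replicate 2 was the lowest library and the groups overlapped, with log2 fold changes of 0.19 and 0.18 (edgeR adjusted p = 0.486 and 0.517). The flp-21 gene had 2.87, 2.89 and 2.32 CPM in nicotinic acid, 2.87, 2.62 and 3.57 CPM in 1-MNA, and 1.84, 1.73 and 2.87 CPM in controls. Control replicate 3 lay within the range of each compound, and the log2 fold changes were 0.30 and 0.48 (edgeR adjusted p = 0.514 and 0.246). The flp-7 gene, whose peptide drives fat loss in the intestine through NPR-22, averaged 5.31 ± 0.231 CPM in nicotinic acid, 5 ± 0.89 in 1-MNA and 4.58 ± 0.557 in controls, with overlap. The flp-1 gene averaged 14.9 ± 0.896 CPM in nicotinic acid, 15.6 ± 1.54 in 1-MNA and 14.1 ± 2.94 in controls, also with overlap.

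Of the remaining named members, flp-19 is made in the gas-sensing URX and BAG neurons. It had 5.90, 7.16 and 6.21 CPM in nicotinic acid, 6.11, 7.08 and 9.21 CPM in 1-MNA, and 5.21, 3.80 and 6.40 CPM in controls. Control replicate 3 overlapped both compounds, and 1-MNA replicate 3 was the highest library. The log2 fold changes were 0.31 and 0.54 (SE 0.20 and 0.19, edgeR adjusted p = 0.439 and 0.13). The flp-14 gene had 17.4, 21.7 and 18.4 CPM in nicotinic acid, 16, 16.9 and 19.8 CPM in 1-MNA, and 17, 13.6 and 16.8 CPM in controls. Its nicotinic acid libraries lay above the controls, the nearest pair being 17.4 and 17 CPM, with log2 fold changes of 0.27 and 0.15 (edgeR adjusted p = 0.219 and 0.547). The flp-8 gene, known from male turning behaviour, averaged 6.74 ± 0.5 CPM in nicotinic acid, 7.01 ± 1.19 in 1-MNA and 5.31 ± 0.679 in controls, with log2 fold changes of 0.34 and 0.40 (edgeR adjusted p = 0.237 and 0.141). The members not described singly, flp-3, flp-4, flp-5, flp-12, flp-16, flp-25 and flp-32, had log2 fold changes of 0.11 to 0.42 under nicotinic acid and 0.00 to 0.44 under 1-MNA, and none passed the threshold.

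The libraries of a group differed from each other across the family. Summed over the 29 members, the level was 227, 252 and 237 CPM in nicotinic acid, 216, 223 and 262 CPM in 1-MNA, and 214, 190 and 232 CPM in controls. Control replicate 3 lay within the range of the nicotinic acid libraries and of the 1-MNA libraries. The group means were 239 ± 12.3 CPM in nicotinic acid, 234 ± 25 in 1-MNA and 212 ± 20.8 in controls (SD, n = 3 each). Control replicate 2 was the lowest of all 9 libraries for 16 of 29 members (55.2%), against 13% of all genes, and below control replicate 3 for 28. The highest library was 1-MNA replicate 3 for 14 members (48.3%), against 7.62% of all genes, and it was the highest of its group for 27. Control replicate 3 was the highest control for 24 members. Leaving out 1 library moved the log2 fold change by over 1.5 times, or turned its sign, for 11 of 21 named members that were not called under nicotinic acid, 16 of 22 under 1-MNA and 20 of 22 between the compounds.

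**Figure D4:**
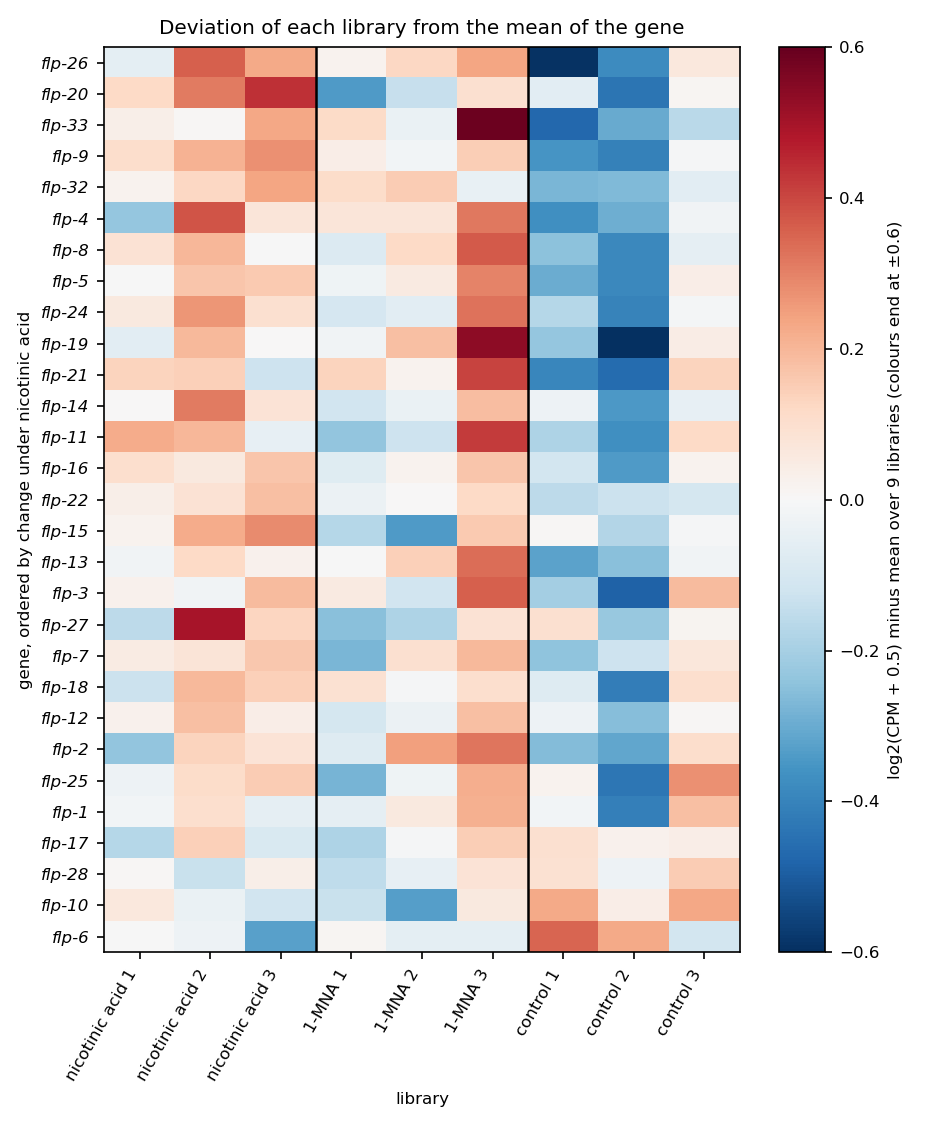
Log2 level of each of the 29 flp genes in each library, relative to the mean of that gene over the 9 libraries, with the nicotinic acid libraries at the left, then 1-MNA and control. Control replicate 2 is low for most genes, with a median of -0.34, and 1-MNA replicate 3 is high, with a median of 0.19.

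Receptors, processing enzymes and release genes were followed from lists. Of 46 receptor genes, 37 were tested, and 0 passed the edgeR threshold under either compound, with 0 also in DESeq2 and limma-voom. At an unadjusted p under 0.05 in edgeR there were 2 under nicotinic acid and 3 under 1-MNA. Among all genes, the shares at that p were 8.59% higher and 10.6% lower under nicotinic acid, and 8.6% and 10.3% under 1-MNA. These shares are the background for each list below. Under nicotinic acid 30 of 37 lay above 0 with a median of 0.18, and under 1-MNA 18 of 37 with a median of -0.00. The receptor gene egl-6 had 5.94 ± 0.534 CPM in controls, npr-5 had 5.58 ± 1.04 CPM, and dmsr-1, a receptor for FLP-13 peptides, had 4.97 ± 1.51 CPM. The receptors npr-3, npr-4, npr-11, npr-22 and frpr-4 had 0.653 to 1.69 CPM in controls, and npr-1, at 0.359 ± 0.0806 CPM, did not pass the filter. Among these 9 receptors the largest fold change was in npr-11, with a mean of 0.565 ± 0.192 CPM in nicotinic acid, 0.57 ± 0.101 in 1-MNA and 0.896 ± 0.256 in controls (log2 fold change -0.64 for each, edgeR adjusted p = 0.313 and 0.308).

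Of 10 processing enzymes, 1 rose and 1 fell past the edgeR threshold under nicotinic acid, where DESeq2 and limma-voom each called 2. Under 1-MNA edgeR called 0, DESeq2 2 and limma-voom 0. At an unadjusted p under 0.05 in edgeR there were 6 under nicotinic acid and 4 under 1-MNA. The gene that rose was pghm-1, which encodes a monooxygenase of the amidation step. It had 28.1, 31.5 and 30.7 CPM in nicotinic acid, and 25.7, 21.1 and 25 CPM in controls and the groups did not overlap. The edgeR log2 fold change was 0.33 (SE 0.08, adjusted p = 0.0392). The call was lost in 12 of 20 alternatives, with an adjusted p of up to 0.136, among them those without nicotinic acid replicate 2 or 3, 1-MNA replicate 1 or 2, or any 1 control. The gene that fell was the convertase kpc-1, with 14.8, 18.8 and 20 CPM in nicotinic acid, and 29.8, 22.5 and 26.2 CPM in controls and again there was no overlap. The edgeR log2 fold change was -0.55 (SE 0.12, adjusted p = 0.0192). That call was lost in 6 of 20 alternatives, with an adjusted p of up to 0.0818, among them those without nicotinic acid replicate 1, control replicate 1 or control replicate 3. Besides precursor cleavage, kpc-1 is known for dendrite branching. The main convertase gene egl-3 averaged 81.4 ± 9.32 CPM in nicotinic acid, 84.7 ± 3.55 in 1-MNA and 72.6 ± 8.72 in controls. The carboxypeptidase gene egl-21 had log2 fold changes of 0.24 and 0.20, sbt-1, which encodes the chaperone of EGL-3, 0.29 and 0.13, and the amidating enzyme gene pamn-1 -0.20 and -0.13, none past the threshold.

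Of 12 dense-core vesicle genes none was called under either compound by edgeR, DESeq2 or limma-voom (0 of 12 each), with 4 and 2 at an unadjusted p under 0.05. The neprilysin genes encode peptidases that degrade peptides outside the cell. Of 26, 12 were tested and the same tools called 0, with 2 and 5 at an unadjusted p under 0.05. Their medians were 0.08 under nicotinic acid and 0.16 under 1-MNA, and those of the vesicle genes 0.09 and -0.02.

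Of 13 pan-neuronal markers, 0 passed in edgeR and 8 lay above 0 under nicotinic acid (median 0.16), and 9 under 1-MNA (median 0.10). DESeq2 called 1 and 0, limma-voom called 0 and 0, and 4 and 2 had an unadjusted p under 0.05. Their summed level was 332 to 379 CPM in nicotinic acid, 353 to 364 CPM in 1-MNA and 336 to 371 CPM in controls, and none was at 0. Of 12 neurotransmitter identity markers, 10 lay above 0 under nicotinic acid (median 0.27) and 11 under 1-MNA (median 0.32), with 0 past the threshold in edgeR, DESeq2 or limma-voom and 2 and 1 at an unadjusted p under 0.05. The part of neuronal marker levels in the flp values was not tested.

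**Figure D5:**
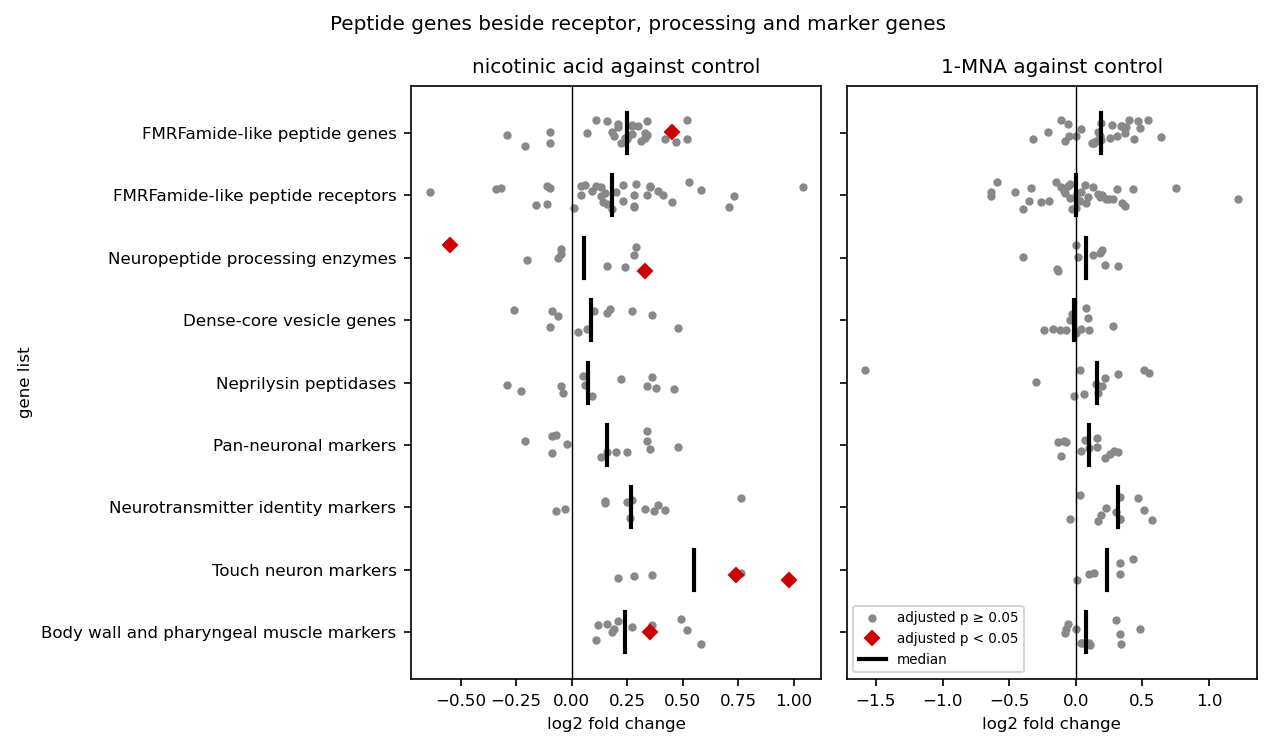
Log2 fold changes under nicotinic acid and under 1-MNA for the flp genes and for 8 other gene lists, 1 point per gene tested, with the list median as a bar and genes past the threshold as diamonds. The flp median is 0.25 under nicotinic acid and 0.19 under 1-MNA, the receptor median 0.18 and -0.00, and the pan-neuronal median 0.16 and 0.10.

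Some markers of other tissues also differed between groups. Of 12 muscle markers, the troponin gene mup-2 rose under nicotinic acid (log2 fold change 0.35, edgeR adjusted p = 0.0258, lost in 7 of 20 alternatives). All 12 lay above 0 under nicotinic acid (median 0.24) and 9 under 1-MNA (median 0.07). DESeq2 called 2 and 0, limma-voom called 1 and 0, and 4 and 0 had an unadjusted p under 0.05 in edgeR. Their summed level was 3667 to 4480 CPM in nicotinic acid, 3345 to 3974 in 1-MNA and 3345 to 3699 in controls. Of 7 sperm markers tested of 46, 5 rose under nicotinic acid, namely ssq-1, ssq-2, nspd-2, spe-11 and spe-15, and fer-1 was higher in nicotinic acid than in 1-MNA. The 5 calls were all lost without control replicate 3, and the calls were lost in 12 of 20 alternatives for ssq-1, 5 of 19 for spe-11, 10 of 19 for fer-1 and 2 each for ssq-2, nspd-2 and spe-15. The summed level of the list was 31.2 to 50.4 CPM in nicotinic acid, 24 to 26.5 in 1-MNA and 22.4 to 23.3 in controls, and 6 of the 46 were at 0 in every library. Of 12 epidermis and moult markers, 4 rose under nicotinic acid (sqt-1, dpy-13, rol-6 and bli-1) and 4 under 1-MNA (mlt-10, sqt-1, dpy-13 and rol-6). Of the 12, 8 lay above 0 under nicotinic acid (median 0.24) and 9 under 1-MNA (median 0.48), so members went both ways. Under each compound 7 had an unadjusted p under 0.05 in edgeR. The lowest log2 fold changes were -0.81 for sqt-3 under nicotinic acid and -0.25 for col-19 under 1-MNA (edgeR adjusted p = 0.164 and 0.231). The 4 nicotinic acid calls were lost in 5, 8, 8 and 10 of 20 alternatives, each of them with the replicate block and with 6 libraries only, and the 4 calls under 1-MNA in 0 of 20. The bli-1 gene had 11.1, 3.42 and 3.25 CPM in nicotinic acid, with replicate 1 far above the others, and 0.674, 1.01 and 0.552 CPM in controls. The summed level of the list was 550 to 722 CPM in nicotinic acid, 658 to 735 in 1-MNA and 557 to 615 in controls. Of 10 intestine markers, 6 lay above 0 under nicotinic acid and 3 under 1-MNA. In edgeR, pept-1 rose under both compounds and ges-1 fell under 1-MNA. These calls were lost in 3 of 20 alternatives for pept-1 under nicotinic acid, in 4 of 20 under 1-MNA, and in 7 of 20 for ges-1 (adjusted p up to 0.134). The list had a summed level of 3791 to 4602 CPM in nicotinic acid, 3827 to 4177 in 1-MNA and 4024 to 4128 in controls. Of 10 germline markers and 7 glia and coelomocyte markers, 0 passed in edgeR or limma-voom, and DESeq2 called 1 germline marker under nicotinic acid. At an unadjusted p under 0.05 there were 2 and 0 germline markers, and 0 and 1 glia and coelomocyte markers. Germline markers summed to 6373 to 6752 CPM in nicotinic acid, 6494 to 7119 in 1-MNA and 6576 to 7165 in controls. Glia and coelomocyte markers summed to 28.8 to 36.8 CPM in nicotinic acid, 28.7 to 31.9 in 1-MNA and 30.3 to 32.2 in controls. The part of these tissue markers in the flp values was not tested.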

How the data were processed

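RNA of 9 libraries was sequenced after TruSeq preparation. Per the submitters' processing notes, the upstream tools were CASAVA, TopHat 1.4.1 and HTSeq. Build, annotation, strand setting and filters: not given in the sources used here, so no coordinates are printed. The deposited counts are unnormalized whole numbers of reads. The deposited RPKM values equal these counts scaled by library total and a gene length, which came out whole (tolerance 0.01 bases) for each of the 15512 genes counted in every library. 44080 entries matched RefSeq names (WBcel235).

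Members and gene lists were chosen with earlier results of these data known. Genes were filtered with filterByExpr at a minimum count of 10, leaving 13985 genes with 99.95% of the counts. One edgeR 4.0.16 quasi-likelihood model (R 4.3.3, robust, TMM factors 0.963 to 1.03, group term only) was fitted to all 9 libraries, with two-sided tests, Benjamini-Hochberg adjustment over all genes and a threshold of 0.05. DESeq2 1.42.0, limma 3.58.1 (voom, and trend on log2(RPKM + 0.1) or + 1), other scalings and filters, 6 libraries only, a replicate block and each library left out were the alternatives. The model was tested on simulated data.

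Named members were those past the threshold in any comparison, the 10 highest by deposited control RPKM, the one the filter removed, the 3 uncalled genes with the smallest p per comparison, and a fixed set of 12 members with 9 receptors and 4 processing genes. Other lists name up to 6 called genes per comparison. Remaining members are named only in counts or ranges, or because of a shared feature. Chi-square per degree of freedom between replicates was 3 to 15.2 across genes, so no libraries were treated as repeats.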

Additional observations from a re-analysis of the deposited data

How the results depend on the processing

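The count of flp genes past the threshold under nicotinic acid was 1, and became 0 with the 6 libraries of the comparison only, and 0 with RPKM at a pseudocount of 0.1 and of 1; it ran from 0 to 1 when libraries were left out in turn. The adjusted p of flp-9 was 0.0729 with 6 libraries, and 0.0882 and 0.0941 with the RPKM pseudocounts, and over all alternatives it ran from 0.00451 to 0.115. Under 1-MNA the count was 0, and became 1 (flp-33) with no filter; it ran from 0 to 1 when libraries were left out. Between the compounds it was 0 in every alternative. The median change ran from 0.17 to 0.35 under nicotinic acid and from 0.11 to 0.31 under 1-MNA when libraries were left out, and other scalings changed no median direction. No called value changed sign. The number of genes called among all genes also moved, under nicotinic acid from 747 to 388 with 6 libraries only, 369 and 345 with the RPKM pseudocounts, and 254 to 758 with libraries left out. Under 1-MNA it moved from 1036 to 637 with the RPKM pseudocount of 0.1 and 679 with that of 1, and ran from 369 to 1195 with libraries left out. Between the compounds it moved from 198 to 431 with no filter, 394 with DESeq2, and 107 and 109 with the RPKM pseudocounts, and ran from 76 to 418 with libraries left out. The cause of these moves was not tested. The flp genes have few reads, and the median 95% interval of 0.31 to either side limits what single members can show.

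The correlations of same-numbered libraries' deviations from their group means ran from -0.236 to 0.22, and not every library correlated best with its own number. With 3 libraries per group, these correlations cannot decide whether replicate numbers pair the samples, so pairing is not settled. With the replicate block, the count under 1-MNA was 1 (flp-33, adjusted p = 0.0391), and that under nicotinic acid and between the compounds stayed at 1 and 0. The number of all genes called between the compounds was 285 with the block.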

Other observations

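The flp-34 gene is listed under its sequence name in the count table and so falls outside the rule for members. It was chosen after its values were seen. It averaged 3.01 ± 0.4 CPM in nicotinic acid, 3.4 ± 0.187 CPM in 1-MNA and 3.65 ± 0.556 CPM in controls (SD, n = 3 each), with overlap between all groups. Its log2 fold change was -0.29 under nicotinic acid (SE 0.16, edgeR adjusted p = 0.365) and -0.11 under 1-MNA (adjusted p = 0.801).

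The neuropeptide-like (nlp) genes are other precursor genes of neurons and epidermis. Unlike the flp members, they were matched by table symbol or current name, and 44 carry an nlp symbol in the count table. Of 70 tested of 81 matched, 57 lay above 0 under nicotinic acid (81.4%, median 0.21) and 51 under 1-MNA (72.9%, median 0.18). Among all genes 49.9% and 49.2% lay above 0. At an unadjusted p under 0.05 in edgeR there were 17 and 15, and DESeq2 called 4 and 2. Under nicotinic acid nlp-80 rose by 0.71 on the log2 scale (edgeR adjusted p = 0.0372, lost in 11 of 20 alternatives). The nlp-39 gene had 0.0683, 0.16 and 0.193 CPM in nicotinic acid, 0.379, 0.472 and 0.35 CPM in 1-MNA, and 2.7, 1.06 and 1.84 CPM in controls. Every treated library lay below every control library. Its log2 fold change was -3.69 under nicotinic acid and -2.20 under 1-MNA (edgeR adjusted p = 0.00143 and 0.00377). Both calls held in all 19 alternatives that tested the gene. Nicotinic acid replicates 1 and 2 were no higher than the 0.104 and 0.162 CPM that a count of 0 allows there. The size of the change under nicotinic acid is therefore uncertain. Over the alternatives it ran from -4.08 to -1.90, and under 1-MNA from -2.48 to -1.37. The comparisons share the control libraries.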
